A study of Mus musculus with 14 samples.

Results

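Glucose starvation in SirT7-/- mouse embryonic fibroblasts is described from 7 of the 14 RNA libraries of the series: 4 libraries labelled normal medium (KO-NT 1 to 4) and 3 labelled glucose-free medium (KO-GS 1 to 3). They were chosen by their labels alone, and the remaining 7 libraries are wild-type cells in the same media (WT-NT 1 to 4 and WT-GS 1 to 3). All cells were primary fibroblasts of strain 129s2 taken at embryonic day 14.5, used at passages 3 to 4 and kept for 18 hours in either medium. SirT7-/- cells lack SirT7, a nuclear enzyme of the NAD-dependent sirtuin family, and both SirT7-/- groups carry the same deletion. The labels do not say whether replicates came from separate embryos or cultures, so the p-values measure only the spread between these libraries, which may be technical.

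Cells use glucose both as fuel and as the source of the sugar chains that are attached to proteins in the endoplasmic reticulum (ER). When those chains run short, unfolded proteins load the ER, and the unfolded protein response, run by the sensors Atf6, Ern1 and Eif2ak3, raises chaperones and the machinery that removes misfolded proteins. Eif2ak3 also feeds the integrated stress response, which slows translation and raises amino acid transport and synthesis through the factor Atf4. Glucose itself drives Txnip and Arrdc4 through the factors Mlxip and Mlxipl, and the SREBP factors drive sterol and fatty acid synthesis. The factor p53 raises cell cycle inhibitors such as Cdkn1a when cells are damaged or arrested.

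Total counts in the 7 libraries ran from 63198478 (KO-GS 2) to 91607861 (KO-NT 4), and 3 counts, the most that a count of 0 allows, corresponded to at most 0.0480 CPM (counts per megaread of the library, after TMM scaling). Sirt7 read 1.02, 1.40, 1.44 and 0.553 CPM in KO-NT 1 to 4 and 0.293, 0.480 and 0.392 CPM in KO-GS 1 to 3, whereas wild-type libraries read at least 17.4 CPM. Every library thus went with its genotype label. Which exons the deletion removes is not given in the sources used here. The fibroblast markers were present in all 7 libraries, with none of 13 under 1 CPM throughout. The summed macrophage markers lay between 439 and 790.3 CPM in normal and between 123 and 1150 CPM in glucose-free libraries, and the muscle markers summed to at most 208 CPM with 3 of 18 at 0. Xist, read from the inactive X chromosome, lay between 897 and 1399 CPM, and Ddx3y, Eif2s3y, Kdm5d and Uty, carried on the Y chromosome, were at 0.

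As labelled, the 7 libraries gave no gene a call. Of 15186 genes tested with edgeR's quasi-likelihood test, 0% passed an adjusted p of 0.05 (Benjamini-Hochberg), the smallest adjusted p was 0.164, and 2253 genes had an unadjusted p under 0.05. DESeq2 called 626 genes (177 higher, 449 lower), limma-voom called 0, and limma-voom with a weight estimated per library called 4249. Those weights were 2.47 to 3.69 for KO-NT 1 to 3, 0.174 for KO-NT 4, 0.683 and 0.958 for KO-GS 1 and 2, and 0.320 for KO-GS 3. Without KO-NT 4 edgeR called 2182 genes, and without KO-GS 3 it called 2. Those 2 genes, Ggta1 (log2 change 1.74) and Cldn12 (log2 change -1.48), were named after their values were seen.

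Hspa5, the main ER chaperone, read 1556, 1451, 1478 and 6291 CPM in KO-NT 1 to 4 and 6100.4, 5723 and 1061 CPM in KO-GS 1 to 3. KO-NT 4 was thus as high as KO-GS 1 and 2, and KO-GS 3 was below every normal-medium library. Fdps, a sterol synthesis enzyme, read 314, 335, 291 and 70.9 CPM in normal medium and 71.8, 74.5 and 347 CPM in glucose-free medium, the mirror image. Txnip, the glucose-driven arrestin, read 117, 114, 97.9 and 5.50 CPM and then 8.97, 1.79 and 118 CPM. Whether the labels of KO-NT 4 and KO-GS 3 are right cannot be told from the files, and both are given below under the labels they carry.

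**Figure D1:**
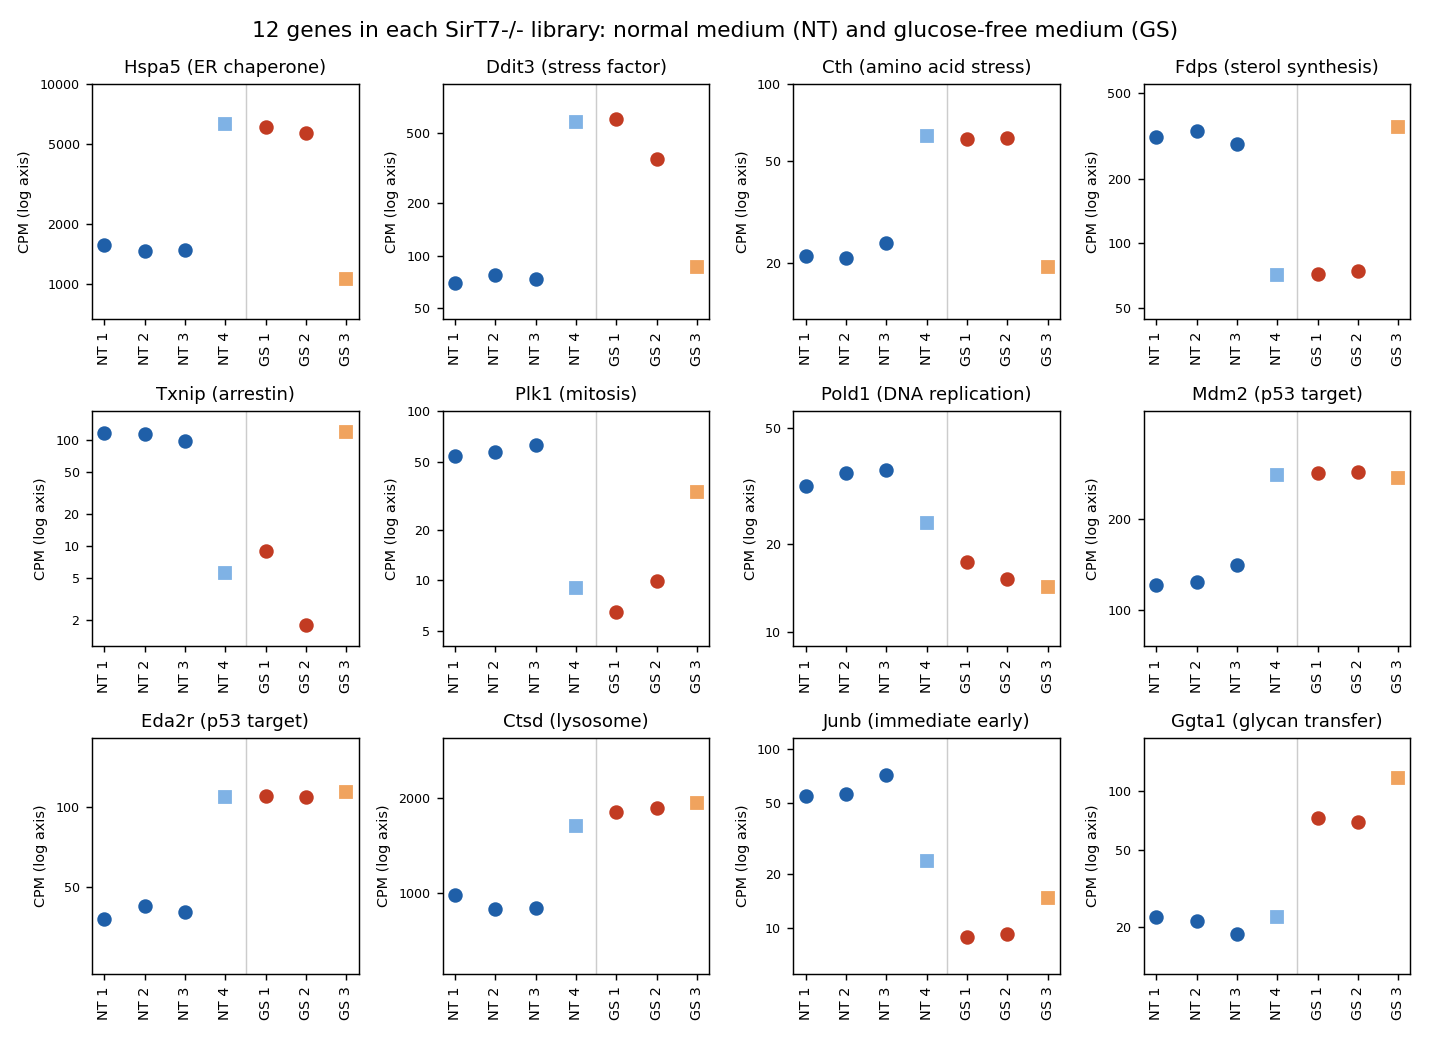
Level of 12 genes in each SirT7-/- library (CPM, log axis; circles, KO-NT 1 to 3 in blue and KO-GS 1 and 2 in red; squares, KO-NT 4 in light blue and KO-GS 3 in orange). The squares lie on the side of the other medium in Hspa5, Ddit3, Cth, Fdps and Txnip, whereas in Pold1, Eda2r, Ctsd, Junb and Ggta1 KO-GS 3 lies with KO-GS 1 and 2.

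The same comparison was also made on 5 libraries, KO-NT 1 to 3 against KO-GS 1 and 2. It called 6065 of 15284 genes, of which 3190 (20.9%) were higher and 2875 (18.8%) lower in glucose-free medium, and 942 of the higher and 967 of the lower calls exceeded 2-fold. Because the other 2 libraries were left out for their profiles, these p-values describe the 5 libraries and are no independent evidence for the starvation genes that set those libraries apart. Without KO-NT 1, 2 or 3 the count was 3552, 2913 or 3265. In all that follows, "rose" and "fell" refer to this comparison, and log2 changes carry the SE of the fit. Counts of members that rose or fell in a list stand against the 20.9% and 18.8% over all genes.

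KO-NT 4 and KO-GS 3 did not depart from their labels in the same way. On a scale where the mean of KO-NT 1 to 3 is 0 and that of KO-GS 1 and 2 is 1, computed over the log2 levels of the 6065 called genes, KO-NT 4 lay at 0.920 and KO-GS 3 at 0.372. KO-NT 4 was nearer to KO-GS 1 and 2 than to KO-NT 1 to 3 in 5510 of the 6065 genes (90.8%). KO-GS 3 was nearer to KO-GS 1 and 2 in 2560 genes (42.2%). Read gene group by gene group, KO-GS 3 lay near normal medium in some, such as sterol synthesis (position -0.07), and near starved cells in others, such as DNA replication (1.02). These group positions use the mean log2 level of all tested members, called or not. Cytosolic heat shock proteins lay between the media (0.60). Their mean differed by only -0.18 on the log2 scale between KO-GS 1 and 2 and KO-NT 1 to 3, with 4 genes up and 7 down, so that position is loose. The integrated stress response targets lay beyond normal medium (-0.99).

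**Figure D2:**
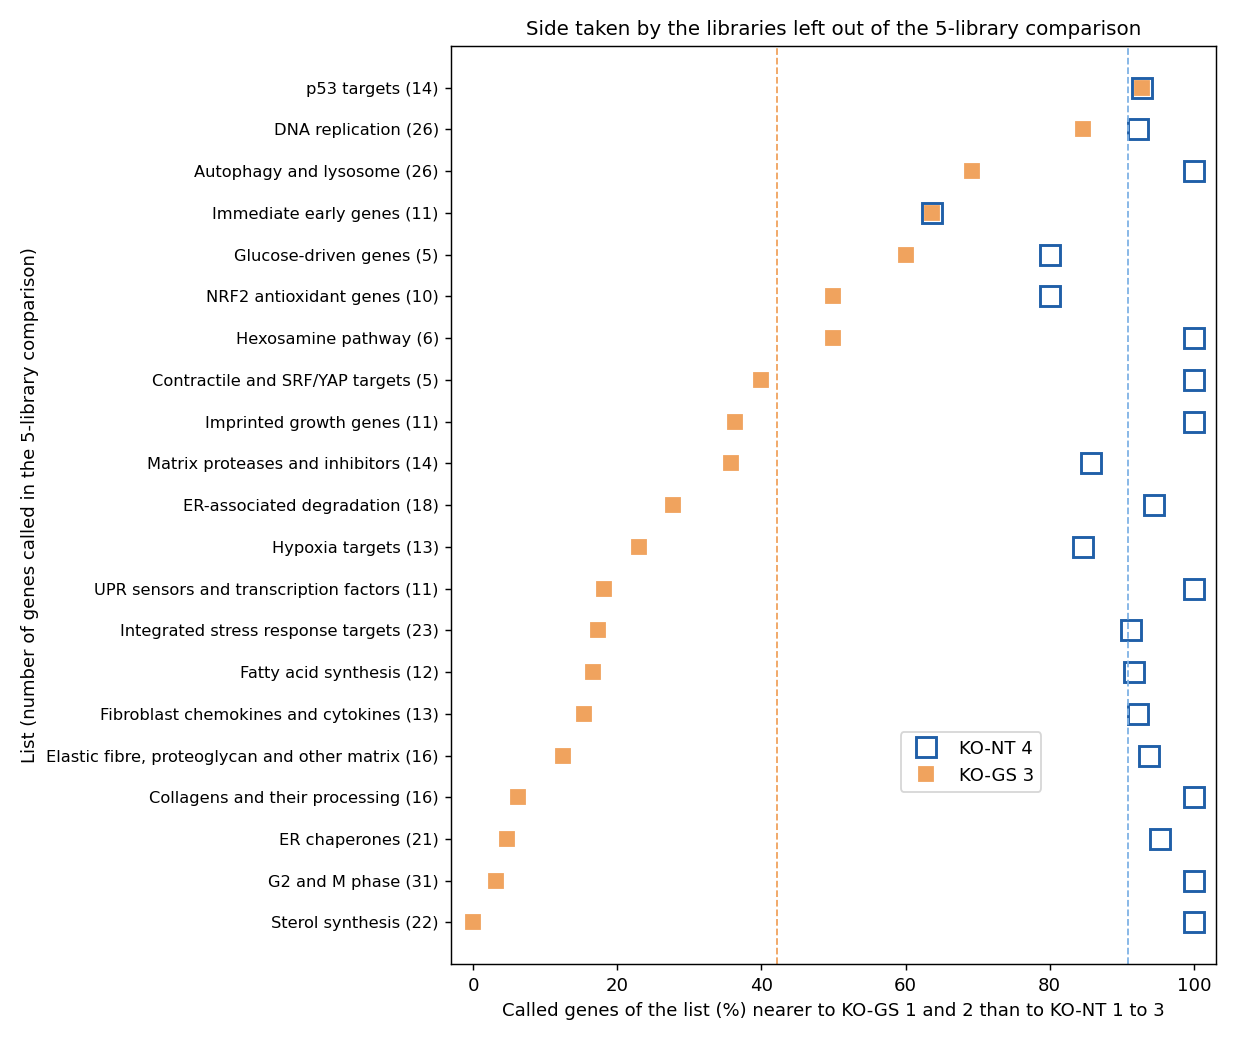
Share of each list's called genes (%, x axis) whose level in KO-NT 4 (open blue squares) or KO-GS 3 (filled orange squares) was nearer to KO-GS 1 and 2 than to KO-NT 1 to 3, for the 21 lists with at least 5 called genes and a mean log2 difference of at least 0.3; dashed lines mark the shares over all called genes, 90.8% and 42.2%. KO-GS 3 runs from 0 of 22 sterol synthesis genes to 13 of 14 p53 targets.

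**Figure D3:**
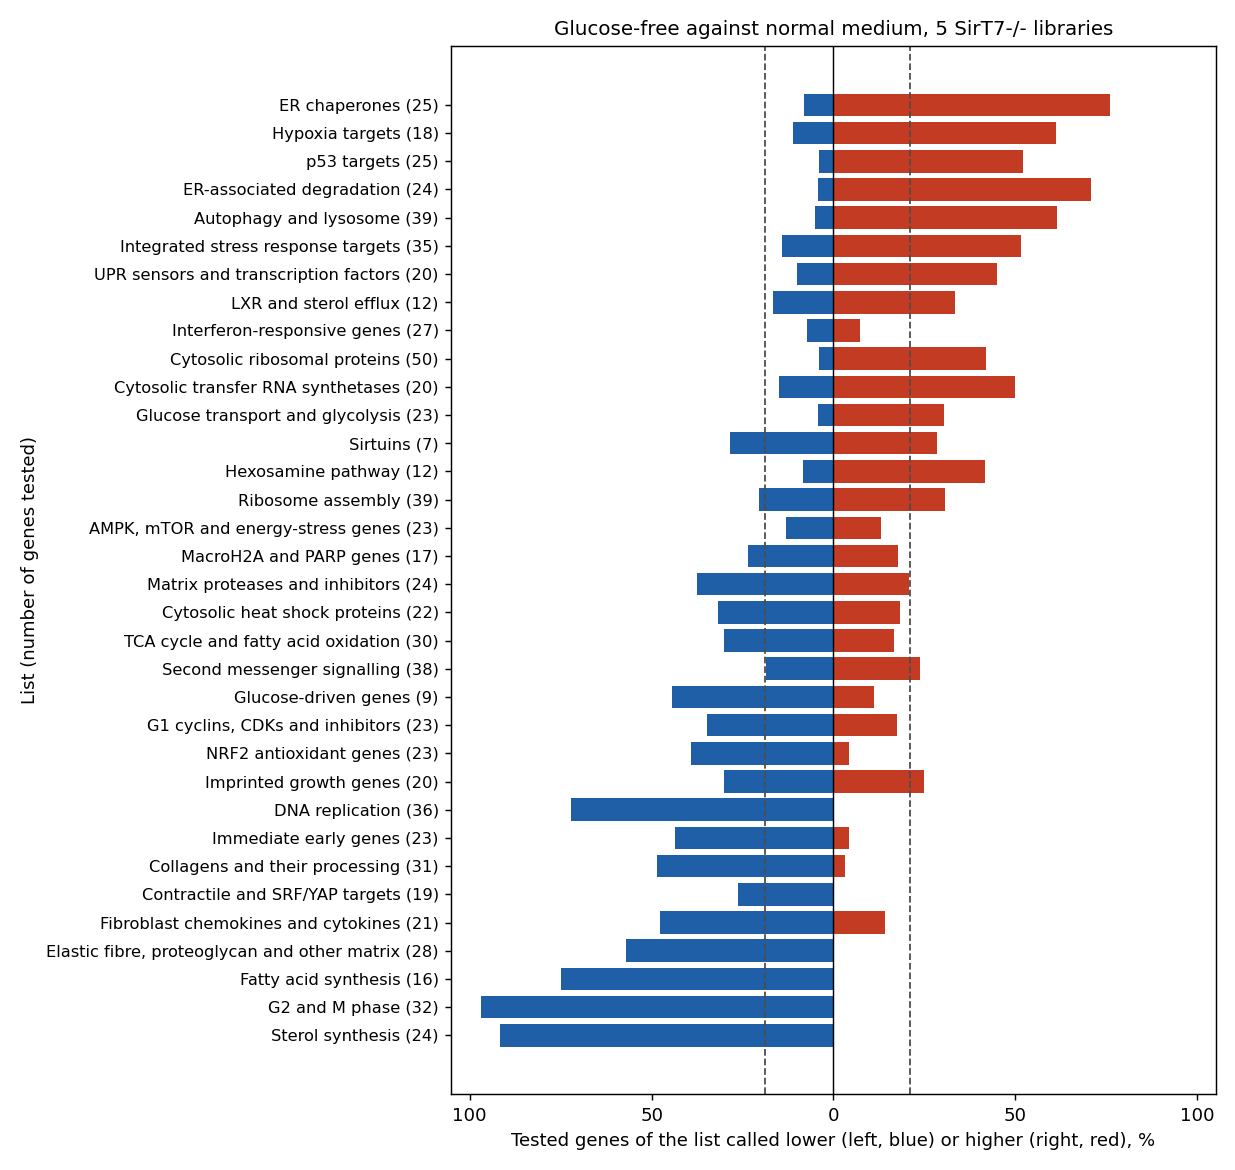
Share of the tested genes of each list called higher (red, to the right) or lower (blue, to the left) in glucose-free medium in the 5-library comparison (%), with the number tested in brackets; dashed lines mark 20.9% and 18.8%, the shares over all genes. ER chaperones have the highest share called higher (19 of 25), and the G2 and M phase list the highest share called lower (31 of 32).

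Promoters of 4 genes at the centre of the response are shown because each is a known target of 1 arm: Hspa5 and Herpud1 of the unfolded protein response, Txnip of glucose sensing and Ccnb1 of the cell cycle. The sequences are RefSeq's for GRCm38.p6, 250 bases up to the transcription start, 5′ to 3′ on the gene's strand, and the capitals mark the match to the motif named with each. Hspa5 (chr2:34771840-34772089, plus strand) holds the ER stress element, CCAAT and CCACG with any 9 bases between them.
Hspa5: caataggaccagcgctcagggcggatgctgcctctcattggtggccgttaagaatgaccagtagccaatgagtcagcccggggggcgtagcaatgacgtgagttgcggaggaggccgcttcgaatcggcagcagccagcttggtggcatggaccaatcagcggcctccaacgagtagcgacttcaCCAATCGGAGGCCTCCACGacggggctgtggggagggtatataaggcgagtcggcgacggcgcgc
Herpud1 (chr8:94386179-94386428, plus strand) holds the second ER stress element, ATTGG and CCACG with any 1 base between them.
Herpud1: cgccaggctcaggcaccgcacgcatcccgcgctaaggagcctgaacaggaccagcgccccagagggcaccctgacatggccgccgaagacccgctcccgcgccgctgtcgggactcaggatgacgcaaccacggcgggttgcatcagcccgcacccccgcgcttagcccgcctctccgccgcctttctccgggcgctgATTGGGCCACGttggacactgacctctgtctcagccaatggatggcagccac
Txnip (chr3:96557707-96557956, plus strand) holds a pair of carbohydrate response motifs, CACGAG and again CACGAG with any 5 bases between them.
Txnip: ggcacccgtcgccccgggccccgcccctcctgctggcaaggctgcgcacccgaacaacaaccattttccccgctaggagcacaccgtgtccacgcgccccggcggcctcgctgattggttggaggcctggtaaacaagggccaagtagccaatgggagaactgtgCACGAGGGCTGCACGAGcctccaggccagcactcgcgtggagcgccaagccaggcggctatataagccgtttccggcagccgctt
Ccnb1 (chr13:100786487-100786736, minus strand) holds 2 CCAAT boxes.
Ccnb1: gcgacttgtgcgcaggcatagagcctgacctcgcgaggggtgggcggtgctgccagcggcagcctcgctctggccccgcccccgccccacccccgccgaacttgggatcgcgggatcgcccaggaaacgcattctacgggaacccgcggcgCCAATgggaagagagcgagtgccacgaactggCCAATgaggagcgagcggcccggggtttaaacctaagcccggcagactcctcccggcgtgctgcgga
Both strands were searched in 32851 promoters of this length. The first ER stress element matched 37 of them (0.113%) and 8 of 27 promoters of ER chaperone genes, the second matched 10 (0.0304%), the carbohydrate response pair matched 1 (0.00304%), and CCAAT, which is also the first part of the first ER stress element, matched 33.8% of all promoters, 25 of 29 of G2 and M phase genes and 20 of 27 of ER chaperone genes. A match is a description of these letters only.

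ER chaperones rose most uniformly. Of 25 tested members 19 rose and 2 fell, with a median log2 change of 1.62 against 0.01 over all genes. Of the 8 chaperone genes whose promoter holds the first ER stress element, Creld2 (3.08), Dnajc3 (2.44), Hsp90b1 (2.13), Hspa5 (1.98), Calr (1.598), Pdia6 (1.59) and Canx (1.38) rose on the log2 scale. Ero1b has no value under that symbol. All 25 list members were tested, so it was counted under an alternative symbol, and its change is not given here. Hspa5 rose with an SE of 0.10 and an adjusted p of 0.00126 (edgeR), which was also the smallest adjusted p over all genes. Dnajb9, an Hsp40 partner of Hspa5 in the ER, read 20.2, 20.8, 21.9 and 301 CPM in KO-NT 1 to 4 and 362, 199 and 34.1 CPM in KO-GS 1 to 3, a log2 change of 3.75 ± 0.26 (SE, adjusted p = 0.00157). Hsp90b1, the ER form of Hsp90, reached 9859 and 6601 CPM in KO-GS 1 and 2 and 1642 CPM in KO-GS 3, below the 1786 to 1996 CPM of KO-NT 1 to 3. KO-NT 4 was nearer to KO-GS 1 and 2 in 20 of the 21 called chaperones, and KO-GS 3 in 1. That 1 was Cnpy2, a saposin-like ER protein, which fell by 0.27 and read 54.2 CPM in KO-GS 3 against 59.6 to 63.0 CPM in KO-NT 1 to 3.

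Machinery that carries misfolded proteins out of the ER moved with the chaperones. Of 24 tested genes of ER-associated degradation 17 rose and 1 fell, with a median log2 change of 0.56. Derl3, a channel protein of this pathway, read 0.365, 0.312, 0.250 and 144 CPM in KO-NT 1 to 4 and 217, 45.4 and 0.318 CPM in KO-GS 1 to 3. Its log2 change of 8.72 ± 0.85 (SE, adjusted p = 0.00267, edgeR) was the largest rise among the genes named here, and KO-GS 1 and 2 differed widely from each other. Herpud1, the scaffold of the ligase complex, rose by 2.43 on the log2 scale, with 72.1 CPM in KO-GS 3 against 68.9 to 74.7 CPM in KO-NT 1 to 3. Sel1l, the partner of the ligase Syvn1, rose by 2.31. The one gene that fell was Sec61b, a subunit of the import channel, from 90.1, 92.9, 92.1 and 76.1 CPM in KO-NT 1 to 4 to 66.3, 49.1 and 52.2 CPM in KO-GS 1 to 3, so that all 7 libraries separated by label.

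Among 20 sensors and transcription factors of the response 9 rose and 2 fell. Ddit3 (CHOP), the factor linked to cell death under ER stress, read 69.4, 77.9, 73.8 and 577 CPM in KO-NT 1 to 4 and 598, 355 and 85.9 CPM in KO-GS 1 to 3, a log2 change of 2.69 ± 0.23 (SE). Crebrf rose by 2.11, Atf6 by 1.29 and Xbp1, the factor spliced by Ern1, by 0.51. Creb3l1, an ER-anchored factor linked to collagen secretion, fell by 2.02 on the log2 scale, from 155 to 172 CPM in KO-NT 1 to 3 to 40.0 and 41.7 CPM in KO-GS 1 and 2. KO-GS 3 read 116 CPM. KO-NT 4 took the starved side in 11 of the 11 called genes and KO-GS 3 in 2.

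Targets of the integrated stress response rose more often than they fell. Of 35 tested members 18 rose and 5 fell (median log2 change 0.41), against 20.9% and 18.8% over all genes. Stc2, a secreted glycoprotein, rose by 2.21, Ppp1r15a, which resets translation, by 1.53, Cth, the last enzyme of cysteine synthesis, by 1.48, the arginine transporter Slc7a1 by 0.88 and Psph, the last enzyme of serine synthesis, by 0.81. The factor Atf5 fell by 0.47, from 216 to 263 CPM in KO-NT 1 to 3 to 183 and 153 CPM in KO-GS 1 and 2. Cth read 21.2, 20.9, 23.8 and 62.7 CPM in KO-NT 1 to 4 and 61.1, 61.3 and 19.2 CPM in KO-GS 1 to 3. The falls included the glutamine transporter Slc1a5 (-1.26) and the cystine transporter Slc7a11 (-0.83). The factor Cebpb fell from 17.6, 20.3, 9.21 and 14.02 CPM in KO-NT 1 to 4 to 2.69, 1.39 and 0.526 CPM in KO-GS 1 to 3, with no overlap between the labelled groups. In wild-type cells Cebpb read 1.61, 9.72, 19.5 and 1.94 CPM in WT-NT 1 to 4 and 1.49, 1.36 and 10.8 CPM in WT-GS 1 to 3, so its low level was not tied to the medium in the series. Averaged over the 35 members, KO-GS 3 lay below KO-NT 1 to 3, at a mean log2 level of 5.50 against 5.91 to 6.01. Of 20 cytosolic transfer RNA synthetases 10 rose, among them Wars (1.47), and 3 fell, among them Mars (-0.93).

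Lipid synthesis fell almost as a block. Of 24 tested sterol synthesis genes 22 fell and none rose (median log2 change -1.98), and KO-GS 3 was nearer to KO-NT 1 to 3 in all 22 whereas KO-NT 4 was nearer to KO-GS 1 and 2 in all 22. Pmvk, a mevalonate pathway kinase, fell by 2.74 on the log2 scale, as did Cyp51, which removes a methyl group from lanosterol (-2.68), and Acat2, at the start of the pathway (-2.38). Cyp51 read 289, 295, 248.8 and 39.8 CPM in KO-NT 1 to 4 and 39.8, 46.5 and 312 CPM in KO-GS 1 to 3. Of 16 fatty acid synthesis genes 12 fell and none rose, with Fads2, a desaturase, at -2.70 and Fasn, the fatty acid synthase, at -1.40. The regulators Srebf1 and Mid1ip1 did not follow Fasn in KO-GS 3. Srebf1 read 120.0, 144, 123 and 91.9 CPM in KO-NT 1 to 4 and 77.1, 61.0 and 82.6 CPM in KO-GS 1 to 3, and Mid1ip1, which activates acetyl-CoA carboxylase, read 71.5, 73.2, 69.7 and 55.7 CPM and then 40.1, 35.8 and 45.2 CPM. The labelled groups did not overlap in either gene.

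Over all genes 20.9% rose and 18.8% fell, and the counts of this paragraph stand against those shares. Of 9 tested glucose-driven genes 4 fell and 1 rose. Txnip, whose promoter is printed above, fell by 4.33 ± 0.73 (SE, log2, adjusted p = 0.00971, edgeR) and its relative Arrdc4 fell too (-2.07). Arrdc4 read 15.5, 17.4, 15.4 and 3.59 CPM in KO-NT 1 to 4 and 3.54, 4.12 and 22.9 CPM in KO-GS 1 to 3. In Arrdc4 KO-GS 3 thus exceeded every library labelled normal medium. The list as a whole was mixed. KO-GS 3 was on the starved side in 3 of its 5 called genes, against 42.2% over all called genes, and KO-NT 4 in 4. Of 23 genes of glucose transport and glycolysis 7 rose and 1 fell, among the rises Pgk1 (0.65). Of 18 hypoxia targets 11 rose and 2 fell. Among the rises were the pyruvate dehydrogenase kinase Pdk1 (1.37) and the collagen hydroxylase subunit P4ha1 (0.81).

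Mitotic genes and replication genes both fell, but KO-GS 3 lay on different sides in them. Of 32 tested G2 and M phase genes 31 fell and none rose (median log2 change -1.16). Plk1, the kinase that drives mitotic entry, read 54.6, 57.8, 62.9 and 8.97 CPM in KO-NT 1 to 4 and 6.53, 9.96 and 33.1 CPM in KO-GS 1 to 3, a log2 change of -2.83 ± 0.21 (SE). Cdc20, the activator of mitotic exit, fell by 2.14, Ccnb1, the mitotic cyclin, by 1.59, and the phosphatase Cdc25b by 0.90. Ccnb1 read 102.7, 94.8, 105.5 and 31.5 CPM and then 24.5, 42.7 and 85.1 CPM. KO-NT 4 was on the starved side in 31 of the 31 called genes, and KO-GS 3 in 1.

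Of 36 tested DNA replication genes 26 fell and none rose (median log2 change -0.49). Here KO-GS 3 was on the starved side in 22 of the 26, and KO-NT 4 in 24. Pold1, the catalytic subunit of DNA polymerase delta, read 31.6, 34.9, 35.7 and 23.7 CPM in KO-NT 1 to 4 and 17.4, 15.1 and 14.3 CPM in KO-GS 1 to 3. Mcm2, part of the replicative helicase, read 89.2, 85.3, 95.1 and 67.0 CPM and then 53.4, 59.8 and 54.1 CPM. In both genes every starved-labelled library lay below every normal-labelled library. Mcm5 (-1.20) and the ligase Lig1 (-0.93) fell as well, with KO-GS 3 at 56.3 CPM for Mcm5 against 101 to 107 CPM in KO-NT 1 to 3. Over the list, 10 of 36 genes were lower in all 3 KO-GS libraries than in all 4 KO-NT libraries, against 7.12% over all genes. After correction for GC content and length 5 of the 36 were, against 4.87% over all genes.

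KO-GS 3 stood on the starved side in nearly all called p53 targets. Of 25 tested members 13 rose and 1 fell (median log2 change 0.57), and KO-GS 3 and KO-NT 4 were each nearer to KO-GS 1 and 2 in 13 of the 14 called genes. Eda2r, a receptor of the TNF receptor family, read 37.7, 42.3, 40.2 and 109 CPM in KO-NT 1 to 4. In KO-GS 1 to 3 it read 109.7, 109 and 114 CPM (log2 change 1.45 ± 0.07, SE, adjusted p = 0.00126, edgeR). Mdm2, the ligase that removes p53, read 121, 124, 141 and 282 CPM and then 285, 287 and 275 CPM. Cdkn1a, the inhibitor p21, read 213, 232, 261 and 386 CPM and then 338, 390.5 and 499 CPM. KO-NT 4 thus stood at the starved level in Eda2r and Mdm2, and KO-GS 3 held the highest Cdkn1a value of the 7. Ccng1 read 415, 421, 474 and 500.5 CPM and then 547, 755 and 952 CPM, and Zmat3 98.9, 113, 112 and 141 CPM and then 165, 160.2 and 203 CPM, both separate by label. Perp, a desmosome-linked target, rose from 1.88 to 2.59 CPM in KO-NT 1 to 3 to 16.7 and 75.8 CPM in KO-GS 1 and 2. Gadd45a, which is also raised by the integrated stress response, rose by 1.77 but read 31.5 CPM in KO-GS 3, close to KO-NT 1 to 3 (23.6 to 28.7 CPM). The kinase Plk3 fell by 0.87 and was separate by label.

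**Figure D4:**
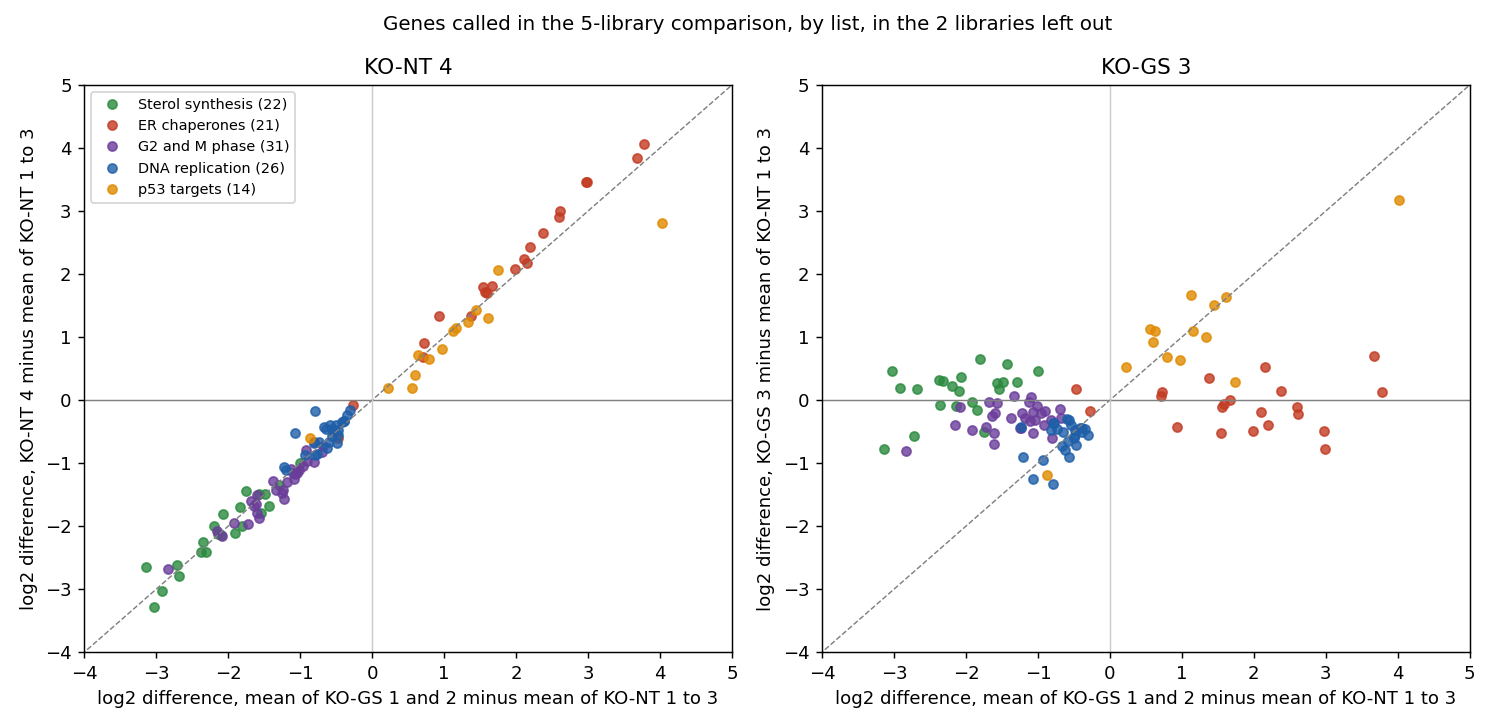
Log2 difference from the mean of KO-NT 1 to 3 (CPM + 0.1) for the called genes of 5 lists: the mean of KO-GS 1 and 2 on the x axis against KO-NT 4 (left) or KO-GS 3 (right) on the y axis, 1 point per gene; the dashed line marks equal differences. KO-NT 4 follows the dashed line in all 5 lists, whereas in KO-GS 3 sterol synthesis genes and ER chaperones lie near 0 and DNA replication genes and p53 targets near the line.

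Autophagy and lysosome genes rose, and KO-GS 3 shared most of these rises. Of 39 tested 24 rose and 2 fell (median log2 change 0.46), KO-NT 4 was on the starved side in 26 of the 26 called and KO-GS 3 in 18. Ctsd, a lysosomal protease, read 988, 891, 899 and 1633 CPM in KO-NT 1 to 4 and 1811, 1859.9 and 1934 CPM in KO-GS 1 to 3. Lamp1, a lysosomal membrane protein, rose by 0.82, and the protease Ctsl by 1.181. In the autophagy conjugation gene Atg12 (0.79) KO-GS 3 read 50.1 CPM, nearer to KO-NT 1 to 3 (39.6 to 41.5 CPM) than to KO-GS 1 and 2 (71.0 and 69.5 CPM).

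Extracellular matrix genes fell, and in them KO-GS 3 stayed near normal medium. Of 31 collagens and processing enzymes 15 fell and 1, P4ha1, rose (median log2 change -0.73). Of 28 elastic fibre, proteoglycan and other matrix genes 16 fell and none rose (median -0.95). Col1a1, the main fibrillar collagen, read 12556, 15636, 14379 and 3602 CPM in KO-NT 1 to 4 and 2946, 3037 and 8342 CPM in KO-GS 1 to 3, a log2 change of -2.24 ± 0.16 (SE). Eln, elastin, read 307, 368, 317 and 29.3 CPM and then 24.2, 27.7 and 119.5 CPM. KO-GS 3 thus lay between the media in both genes. Lrrc17, a secreted leucine-rich protein, fell by 4.67 with 185 CPM in KO-GS 3, and the microfibrillar collagen Col6a2 fell as well (-1.76). Col1a1 is itself one of the 13 fibroblast markers, 8 of which fell and none rose, and fewer fibroblasts and less of these RNAs per fibroblast cannot be told apart in bulk RNA.

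Of 21 chemokines and cytokines 10 fell and 3 rose, against 18.8% and 20.9% over all genes. Cxcl5, which attracts neutrophils, read 42.8, 38.9, 51.8 and 0.868 CPM in KO-NT 1 to 4 and 0.843, 1.97 and 41.7 CPM in KO-GS 1 to 3. Cx3cl1, a membrane-bound chemokine, read 156, 137, 132 and 14.7 CPM and then 10.1, 16.7 and 50.4 CPM. Tnfsf18, a ligand of the TNF family, rose by 4.32. The summed macrophage markers ranged more widely within a medium than between media (values above), none of the 15 was called, and their part in these falls was not tested.

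Immediate early genes, which respond to serum and growth factors within minutes, fell in 10 of 23 tested and rose in 1. In this group KO-GS 3 and KO-NT 4 were each on the starved side in 7 of the 11 called. Junb read 54.3, 55.9, 71.7 and 23.7 CPM in KO-NT 1 to 4 and 8.98, 9.29 and 14.9 CPM in KO-GS 1 to 3. Ier2 read 40.2, 35.6, 47.8 and 38.5 CPM and then 17.7, 17.0 and 18.5 CPM, so that here even KO-NT 4 stood with KO-NT 1 to 3. Its unadjusted p as labelled was 2.17e-05. Egr2 fell by 2.84 but stood at 11.3 CPM in KO-GS 3, between the media. Klf4 was the one that rose (1.13). Over the list 7 of 23 were lower in every KO-GS than in every KO-NT library, against 7.12% over all genes, and 5 were after correction for GC content and length, against 4.87%.

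Other groups moved less, and over all genes 20.9% rose and 18.8% fell in the same comparison. Of 50 cytosolic ribosomal proteins 21 rose and 2 fell by small amounts (median log2 change 0.27), with KO-GS 3 on the starved side in 2 of 23. Of 39 ribosome assembly genes 12 rose and 8 fell. Among 22 cytosolic heat shock proteins 4 rose and 7 fell: Hspa8, the constitutive Hsp70, rose by 0.93, and the inducible Hspa1b, which is nearly identical to Hspa1a and can share reads with it, fell by 1.88. Of 23 NRF2 antioxidant genes 9 fell and 1 rose, of 27 interferon-responsive genes 2 fell and 2 rose, of 12 sterol efflux genes 4 rose and 2 fell, and of 23 energy-stress genes of the AMPK and mTOR pathways 3 rose and 3 fell. Among the sirtuins Sirt1 rose by 0.61 and Sirt6 fell by 0.52, with 17.4, 21.1, 19.5 and 19.2 CPM in KO-NT 1 to 4 and 14.7, 12.1 and 10.2 CPM in KO-GS 1 to 3. What remains of Sirt7 fell too (-1.74 ± 0.36, SE, adjusted p = 0.0175), at levels of 24 to 109 counts per library, and it was not called with any 1 of KO-NT 1 to 3 left out. Of the macroH2A histones, H2afy2 fell by 1.34, and H2afy, with a log2 change of -0.22 and an adjusted p of 0.0737, was not called. In the list of second messenger genes 9 of 38 rose and 7 fell, both near the shares over all genes. Its called members included the calcium channel Itpr2 (1.27) and the phosphodiesterase Pde4b (-1.64).

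By size alone, and at 5 CPM or more, the 10 largest rises without overlap in the 5 libraries were led by Derl3 and Wnt7a, a Wnt ligand, at 0.0391, 0, 0.0922 and 4.76 CPM in KO-NT 1 to 4 and 3.59, 7.37 and 0.0856 CPM in KO-GS 1 to 3 (log2 change 6.92). They also held Prr32 (5.40), the secreted carbonic anhydrase Car6 (4.94), the glycan transferase B4galnt2 (4.66), Perp (4.44), Clic5 (4.41), Ppef1 (4.38) and Tnfsf18 (4.32). Eif3j1 (7.61) was also among them, but its near-identical copy Eif3j2 took the reads in its place in KO-NT 1 to 3 and KO-GS 1, so its change is uncertain. The largest falls were Ms4a4d (-5.67), the matrix protease Adamts16 (-5.24), Cxcl5 (-5.003), Emc6 (-4.70), Lrrc17 (-4.67), the amine oxidase Aoc3 (-4.59), Txnip (-4.33), the collagen Col24a1 (-3.81), Eln (-3.67) and Heyl (-3.63), a Notch target. Aoc3 read 14.3, 9.28, 6.43 and 0.282 CPM in KO-NT 1 to 4 and 0.428, 0.400 and 2.13 CPM in KO-GS 1 to 3. In Col24a1 KO-GS 3 (23.6 CPM) exceeded all 4 normal-medium libraries (0.965 to 15.1 CPM).

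In the full set of 7 libraries, 848 genes (5.58%) were higher and 1082 (7.12%) lower in every KO-GS than in every KO-NT library. Ggta1, the enzyme that adds the terminal alpha-galactose to glycans, read 22.6, 21.5, 18.6 and 22.5 CPM in KO-NT 1 to 4 and 73.0, 69.1 and 116 CPM in KO-GS 1 to 3. Its log2 change as labelled was 2.02, with an unadjusted p of 1.67e-05 and an adjusted p of 0.164 (edgeR), and KO-NT 4 lay here with its own label. Among the largest rises of this kind at 5 CPM or more were Perp (2.78), the desmosome protein Dsp (2.49), the lubricant proteoglycan Prg4 (2.01), Pkhd1l1 (1.91), Spock3 (1.87), Crispld1 (1.69), Prom1 (1.63), Prss35 (1.62) and the complement factor C2 (1.61). C2 read 2.38, 2.89, 2.75 and 12.4 CPM and then 13.97, 16.9 and 15.9 CPM. The largest falls were Emc6 (-4.18), Cebpb (-3.31), Ier5l (-2.93), Junb (-2.22), Zfp865 (-1.97), the histone H2afj (-1.61), Rnaseh2c (-1.55), Hspa1a (-1.53), Col15a1 (-1.53) and Glis1 (-1.49). Emc6, a subunit of the ER membrane insertion complex, read 22.9, 21.8, 23.01 and 2.23 CPM and then 0.990, 0.737 and 1.15 CPM. In the wild-type library WT-NT 1, in normal medium, it read 0.420 CPM, so its low level was not tied to the medium in the series. Of the 10 rises and 10 falls named here, 2 (Perp and Dsp) and 4 (Zfp865, Rnaseh2c, Hspa1a and Glis1) were also without overlap, in the same direction, between the labelled wild-type groups.

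GC content and transcript length moved with the label, and their part in these differences was not tested beyond the correction given here. Genes higher in every KO-GS library had a median transcript GC content of 44.9%, those lower in every one 56.8%, and those that overlapped 49.9%. Their median transcript lengths were 4167, 2321 and 3066 bases. With genes split into 5 equal bins by GC content, the bin richest in GC had a median log2 difference from the mean of KO-NT 1 to 3 of -0.223, -0.371 and -0.274 in KO-GS 1 to 3 and -0.102 in KO-NT 4. After correction for GC content and length, 351 of the 843 higher and 486 of the 1069 lower genes with a known GC content stayed without overlap, and 540 (3.6%) higher and 731 (4.87%) lower genes were without overlap in all. In the 5-library comparison 2403 of 3158 higher and 2253 of 2854 lower calls stayed called in the same direction after that correction. Junb (62.6% GC), Cebpb (67.2%) and Plk3 (59.2%) are rich in GC, whereas Ggta1 (46.0%) and Eda2r (40.9%) are not, and Atf5, Mars, Ccng1, Sirt6 and Zfp865 lost their 5-library call after the correction, Atf5 at a log2 change of -0.06 and Ccng1 at 0.29.

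**Figure D5:**
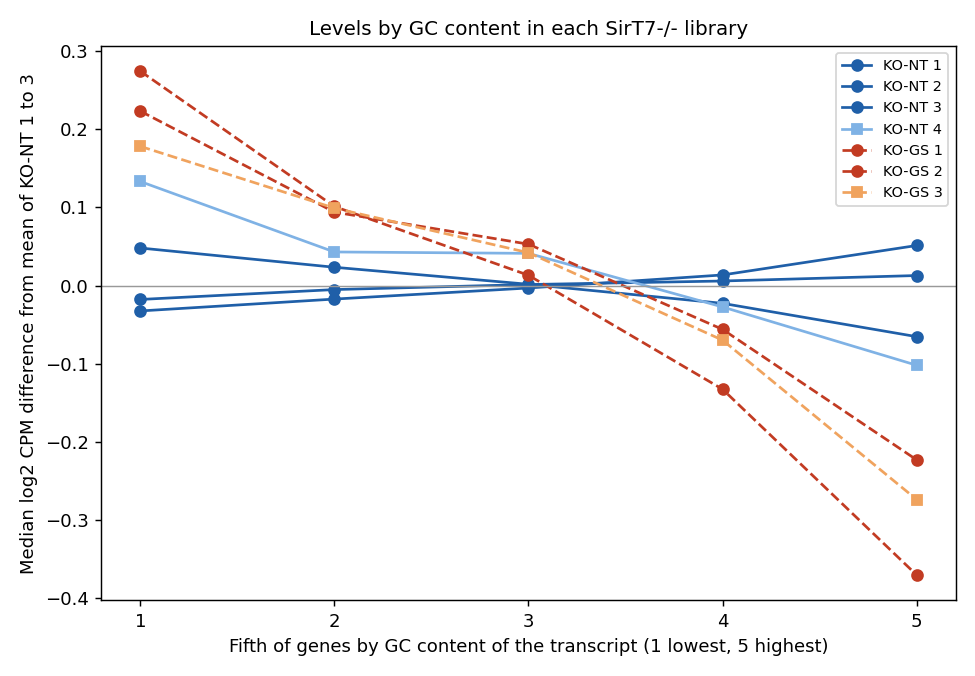
Median log2 CPM difference of each library from the mean of KO-NT 1 to 3 (y axis) for the genes in each of 5 equal bins of transcript GC content (x axis, 1 lowest to 5 highest). The 3 KO-GS libraries (dashed) fall from between 0.178 and 0.275 to between -0.371 and -0.223, and KO-NT 4 (light blue) from 0.133 to -0.102.

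KO-GS 3 and KO-NT 4 were also set beside the wild-type libraries. Over the 15666 genes tested in all 14 libraries, the log2 levels of KO-GS 3 correlated most with those of WT-NT 4, a wild-type library labelled normal medium (Pearson r = 0.988), against 0.972 to 0.973 with KO-NT 1 to 3 and 0.962 and 0.957 with KO-GS 1 and 2. KO-NT 4 correlated most with KO-GS 1 (0.990), WT-GS 1 (0.986) and WT-GS 3 (0.985), against 0.954 to 0.955 with KO-NT 1 to 3. These correlations are across genes and are descriptions. KO-GS 3 and WT-NT 4 differed from replicates 1 to 3 in normal medium alike in some gene groups and not in others. Relative to replicates 1 to 3 of the same genotype in normal medium, p53 targets lay 0.60 higher in KO-GS 3 and 0.48 higher in WT-NT 4 on the log2 scale. DNA replication genes lay at -0.54 and -0.53, autophagy and lysosome genes at 0.33 and 0.27, and immediate early genes at -0.72 and -0.99. ER chaperones lay at -0.15 and -0.14, against 1.58 in KO-GS 1 and 2. Sterol synthesis genes lay at 0.12 and 0.23, against -1.96 in KO-GS 1 and 2. The 2 libraries differed in imprinted growth genes (-0.11 in KO-GS 3 and 0.48 in WT-NT 4), elastic fibre and other matrix genes (0.04 and 0.45) and interferon-responsive genes (0.85 and 0.33). They also differed in chemokines and cytokines (0.31 and 0.02), hypoxia targets (0.12 and -0.19), glucose transport and glycolysis (0.20 and -0.08) and sirtuins (-0.36 and -0.05). Among the cell type markers, those of macrophages lay at -0.07 and -0.67 and those of adipocytes at -0.69 and -0.40. The part of such cells in the other differences was not tested.

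Single genes also went both ways. Scaled with all 14 libraries, Mdm2 read 178, 139, 152 and 254 CPM in WT-NT 1 to 4 and 341, 331 and 323 CPM in WT-GS 1 to 3. Pold1 read 23.1, 34.5, 30.4 and 14.7 CPM and then 13.7, 14.6 and 17.4 CPM. Hspa5 read 1436, 1472, 1439 and 1039 CPM and then 7569, 6505 and 6426 CPM. WT-NT 4, like KO-GS 3, was thus at the starved level in Pold1 and not raised in Hspa5. WT-NT 4 was also at the starved level in Eda2r (125 CPM, against 119 to 141 CPM in WT-GS 1 to 3). So it was in Ctsd (1736 against 1555 to 1786 CPM) and Junb (11.4 against 8.07 to 13.3 CPM). In each of these genes WT-NT 4 lay outside the range of WT-NT 1 to 3. Its Plk1 (31.4 CPM) lay between the media, and its Fdps (271 CPM) lay within the range of WT-NT 1 to 3. In Mdm2 WT-NT 4 lay between the media, whereas KO-GS 3 (274 CPM) lay close to KO-GS 1 and 2 (284 and 286 CPM). In Emc6 KO-GS 3 (1.15 CPM) lay with KO-GS 1 and 2, whereas WT-NT 4 (18.8 CPM) lay with WT-NT 2 and 3 (22.4 CPM in both). Higher p53 targets and lower replication genes thus also occurred in a library labelled normal medium.

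No gene was called for a difference between the genotypes in its response (edgeR's quasi-likelihood test). With 14 libraries 0 of 15666 genes (0%) were called (950 at an unadjusted p under 0.05, smallest adjusted p 0.6797), and with KO-NT 4 and KO-GS 3 left out 0 of 15864 (0%) were called (524 at an unadjusted p under 0.05). DESeq2 called 5 and 15, and limma-voom 0 and 0. The 5 were H2-Q1, Slc13a5, Fdx1l, Tbkbp1 and Pira4, named after their values were seen. Their DESeq2 log2 differences were 8.89, -2.02, 26.1, 1.04 and 20.6. The counts behind them are not given here, and the largest cannot be taken as measured changes. In the 12-library fit the starvation response itself called 5251 genes in SirT7-/- and 6280 in wild-type cells (20.4% of genes higher and 19.1% lower in the latter). Of the SirT7-/- genes named above, Cnpy2, Sec61b, Cebpb, Cdkn1a, Ccng1, Plk3, Ier2, Sirt6 and Pkhd1l1 were called with 5 libraries but not in that fit. Hspa5 changed by 2.36 in wild-type cells, Ddit3 by 2.51, Fdps by -1.87, Txnip by -5.48 and Plk1 by -2.60 (log2), each called. In wild-type cells 23 of 25 ER chaperones rose, 22 of 24 sterol synthesis genes fell and 32 of 32 G2 and M phase genes fell. Of the p53 targets 7 of 25 rose and 2 fell in wild-type cells, whose normal-medium group includes WT-NT 4. Over both directions together, the share of p53 targets called there was near that over all genes. By direction, 7 of 25 higher stand against 20.4% over all genes, and 2 of 25 lower against 19.1%. Ggta1 read 26.2, 17.0, 27.7 and 33.5 CPM in WT-NT 1 to 4 and 24.3, 79.8 and 27.0 CPM in WT-GS 1 to 3, so only WT-GS 2 stood above the normal-medium libraries, and KO-GS 3 (116 CPM) stood far above WT-NT 4.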

How the data were processed

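RNA of 14 libraries was sequenced. For each library the authors deposited whole-number estimated counts under 24015 gene symbols. Per the submitters' processing notes the tools were FastQC 0.11.3, Trimmomatic 0.36, HISAT2 2.1.0, SAMtools, StringTie 1.3.3 and DESeq2 1.18.1 on build mm9. Annotation and strand setting are not given in the sources used here, so overlapping genes can share reads. Libraries were grouped by their labels, and the 7 SirT7-/- libraries were fitted alone with edgeR 4.0.16 in R 4.3.3 (TMM, filterByExpr with a minimum count of 10 and total of 15, robust quasi-likelihood F-test, Benjamini-Hochberg adjustment, threshold 0.05), then without KO-NT 4 and KO-GS 3. The genotype difference was tested as an interaction over 14 and over 12 libraries. SEs were worked back from the F-test. DESeq2 1.42.0 and limma 3.58.1 served as alternatives. Of 937 entries in 42 gene lists, 936 matched the table. Named genes were Sirt7, the 10 largest rises and falls among called genes of the 5 libraries and among genes without overlap in 7 (at least 5 CPM, no clone or predicted symbols), list members described by count or by smallest p, and fixed controls, some of which are not reported here. Members, lists and rules were chosen with earlier results of these data known. GC content came from GENCODE M21 transcripts for 15019 of 15186 genes (98.9%), and the trend on GC content and length was removed by a loess fit over 30% of the genes. Promoters came from RefSeq's table for another build than the authors', and only their sequences and GRCm38.p6 positions were used. The scripts were tested on simulated data. The 27 entries with a date in place of a symbol were not named.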

Additional observations from a re-analysis of the deposited data

Results flagged for a closer look

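In the 4 libraries labelled SirT7-/- normal medium, 66 of the 114 genes named in the report or used as controls had 1 library apart from the rest: its gap to the nearest of the others took more of the group's range than Dixon's 95% limit, which chance passes in about 1 group of 20. In all 66 that library was KO-NT 4, which was highest in 47 and lowest in 19, so these are 1 pattern in 1 library rather than 66 separate results. Many of the 114 genes were chosen from the comparison that left KO-NT 4 out for its profile. A gap in KO-NT 4 is thus partly built into that choice, and 1 in 20 is no benchmark for 66 of 114. The glucose-free group, with 3 libraries, is too small for this check.

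KO-NT 4 was highest with a gap of 1.0 of the range in Derl3, Eif3j1 and Prr32, 0.99 in Car6, Creld2, Dnajb9, Herpud1, Sel1l and Tnfsf18, and 0.98 in B4galnt2, Ctsl, Ddit3, Dnajc3, Hspa5, Pdia6, Ppef1, Wars and Wnt7a. The gap was 0.97 in Calr and Hsp90b1, 0.96 in Crebrf, 0.95 in C2, Canx, Clic5, Ero1l, Perp and Xbp1, and 0.94 in Atf6, Atg12, Gadd45a, Klf4, Lamp1 and Slc7a1. It was 0.93 in Cth, Eda2r, P4ha1, Polk, Ppp1r15a and Stc2, 0.92 in Dsp and Spock3, 0.91 in Pdk1, 0.90 in Psph, 0.89 in Hspa8, 0.88 in Itpr2 and 0.87 in Ctsd and Mdm2. KO-NT 4 was lowest with a gap of 0.96 in Cdc25b, 0.94 in Emc6, 0.90 in Mcm5, and 0.87 in Fads2, Heyl, Mars and Plk3. The gap was 0.86 in Acat2, Arrdc4, Ccnb1, Cdc20 and Creb3l1, 0.85 in Plk1, 0.84 in H2afy2 and Lrrc17, and 0.83 in Cx3cl1, Fdps, Sec61b and Txnip. Ggta1 and Ier2 were not among them.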

How the results depend on the processing

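As labelled, the 7 libraries gave 0 calls without a filter, with a stricter one, with scaling by RLE or by total count, with limma-voom, with all 14 libraries in 1 fit, and with correction for GC content and length. DESeq2 gave 626, limma-voom with library weights 4249, and the 5-library comparison 6065. Leaving out each library gave 0 to 2182, with 2182 without KO-NT 4, 2 without KO-GS 3 and 0 without any other. The 5-library count of 6065 lay between 5251 and 7232 under the alternatives that kept all 5 libraries and had no block, and between 2913 and 6959 with a library left out (2913 to 3552 without KO-NT 1, 2 or 3). Deviations of same-numbered libraries from their group means had correlations of -0.09, -0.08 and 0.25. Those means include KO-NT 4 and KO-GS 3, so the correlations cannot show whether the numbers pair the samples. The replicate block gave 1761 calls in the 5 libraries and 0 in the other comparisons. Of the named genes' 5-library log2 changes none changed sign. In all, 93 of the 1595 values under alternatives lost a call and 4 gained one, 21 of the losses under the block and 47 without KO-NT 1, 2 or 3. The genotype difference, 0 as reported, was 5 with DESeq2 in 14 libraries and 15 in 12. With a library left out it was 0 to 1 in 14 libraries (H2-Q1 without KO-GS 1, Npcd without WT-GS 3) and 0 to 2 in 12 (H2-Q1 without KO-GS 1, Pgam5 and Fam134c without KO-GS 2, Cldn12 without WT-NT 3, Ablim1 without WT-NT 4, Npcd without WT-GS 3). Genes without overlap between the labelled groups numbered 1930, and 1271 after GC and length correction. Leaving out a library gave 2021 to 6580, with 6580 without KO-NT 4, 4214 without KO-GS 3 and 3454 without KO-GS 1. The GC correction and the counts of genes without overlap with a library left out were chosen after seeing the data. At 63198478 counts or more per library, some named genes still rest on few counts in 1 group, such as Sirt7 and, in KO-NT 1 to 3, Derl3 and Wnt7a.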
